A study of Homo sapiens with 12 samples.

Results

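NF-kB is a family of dimeric transcription factors that IkB proteins hold inactive in the cytoplasm. In the canonical route, receptors such as those for TNF, IL-1 and microbial products activate the IKK kinase complex, IkB is degraded, and the freed dimers enter the nucleus. In the non-canonical route, the kinase NIK accumulates and processing of the NFKB2 precursor is triggered. Many NF-kB targets are themselves inhibitors of the pathway, such as IkB alpha and A20, and others are cytokines, adhesion molecules and survival proteins.

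The set described here holds 38 genes of this pathway, its components and its feedback targets, chosen by symbol from the 19677 genes listed for each library. The choice was made with earlier results of these data known, so the shares called among the members are not a test of the pathway. All 38 were found, each once. They comprised 5 IkB proteins, 5 transcription factor subunits, 11 kinases and adaptors, 10 feedback and survival regulators, and 7 cytokine, chemokine and adhesion targets. RNA was measured in CAOV3 cells, an established human line from a serous ovarian carcinoma of high grade, in 12 libraries that fell into 4 groups of 3 replicates. All groups were wild type per the labels. Control cells received the solvent DMSO, ascites cells received 10% ovarian cancer ascites with DMSO for 16 hours, bezafibrate cells received 200 uM bezafibrate for 16 hours, and combination cells received both agents for 16 hours. Ascites is abdominal fluid that builds up in patients with ovarian cancer. Bezafibrate belongs to the fibrates, lipid-lowering drugs that act on PPAR nuclear receptors. In the labels DMSO is listed for the control and ascites groups alone, so bezafibrate and any difference in solvent cannot be told apart. The labels do not say whether replicates were separate cultures or days, or whether the ascites came from 1 source, so p-values measure only the spread between these libraries. In these bulk samples, fewer cells of a type and less RNA per cell cannot be told apart.

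Total counts ranged from 11831093 to 18762759 per library, and 12470 genes were tested. Libraries with and without bezafibrate separated along the first principal component (37.0% of the variance). Combination replicate 3 stood apart on the second component, at -22.4 where the other libraries lay between -4.37 and 9.84. Calls of members that change without it are given with both values. For the test of any difference among the 4 groups, only the counts with and without it are given. The keratins KRT8 (mean 3033 CPM, the normalised count scaled to library size) and KRT18 (1797 CPM) and the adhesion gene EPCAM (30.2 CPM) were present, whereas 7 of 15 markers listed for serous carcinoma were under 1 CPM, among them MUC16, WT1, PAX8 and WFDC2. Of the 9 tested in that list, 5 were called higher with bezafibrate: CDH1 (1.60 on the log2 scale), PAX8 (1.07), CLDN4 (0.66), KRT7 (0.56) and KRT19 (0.26). Over all tested genes 15% were called higher. EPCAM (0.10), CLDN3 (-0.35), KRT8 (-0.03) and KRT18 (-0.02) were not called. The list summed to 6273 to 6601 CPM without bezafibrate and 6596 to 7178 CPM with it. Of 16 leukocyte and monocyte markers, 8 were at 0 in all libraries, including PTPRC, CD3E and TYROBP. The summed level of that list was 76.8 to 85.6 CPM without bezafibrate and 95.01 to 103.7 CPM with it, and CD68, at a mean of 83.4 CPM, held most of that sum. Of the 4 tested in that list, only CD68 (0.32) was called with bezafibrate. CD14 (0.25), LYZ (0.57) and CD79A (-0.08) were not called. The 11 fibroblast and mesothelium markers summed to 186.9 to 197.8 CPM without bezafibrate and 161.6 to 178.7 CPM with it. LUM, at a mean of 171.8 CPM, held most of that sum. Of the 4 tested in that list, LUM (-0.15), COL1A1 (-0.68) and COL3A1 (-0.84) were called lower with bezafibrate, and CALB2 (0.26) was not called. Over all tested genes 13.2% were called lower. The part of these cell markers in the results below was not tested.

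Calls below are at 0.05 on p-values of edgeR's quasi-likelihood test after Benjamini-Hochberg adjustment across the tested genes. Of the 38 genes, 33 passed the filter on low counts, and 32 of those had a mean of at least 1 CPM. TRAF1, an adaptor of TNF receptors, was tested at a mean of 0.818 CPM. The 5 that were not tested all belonged to the cytokine and chemokine targets. TNF had 0 counts over the 12 libraries, which allows a level of up to 0.0173 CPM for counting error alone. CCL2 had 3 counts in all, IL1B 4, LTB 12 and CXCL3 29. The main inflammatory ligands of the set were therefore at or near the detection limit in every group, and no fold change is given for them.

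Promoter sequence is shown for called genes, and for TNFAIP3, where the window of 250 bases before a RefSeq start held the kB consensus, the DNA element that NF-kB dimers bind. The consensus searched for was GGG, a purine, any base, A or T, a pair of pyrimidines and CC, on both strands, and near-palindromic matches count on both. RefSeq promoters (GRCh38.p14) were matched for 31 of 38 members, with 56 windows, since a gene can have several starts whose windows may overlap. No entry was matched for NFKBIE, RELB, IKBKB, RIPK2, CD40, IER3 and CCL2. The consensus occurred in 18 of 56 windows (32.1%), from 15 members, and in 1816 of 34943 windows of all genes (5.2%). Because the members were chosen as pathway components and feedback targets, their higher share is not a test of the pathway. Overlapping windows of a gene can also hold the same match. The stretches below are written 5′ to 3′ on the gene's strand, with kB matches in capitals. They are NFKBIA at chr14:35404750-35404849 (minus strand), NFKB2 at chr10:102394463-102394492 (plus), CFLAR at chr2:201118609-201118638 (plus), NFKBIZ at chr3:101827760-101827989 (plus), BIRC3 at chr11:102317279-102317449 (plus) and TNFAIP3 at chr6:137867189-137867218 (plus).
NFKBIA: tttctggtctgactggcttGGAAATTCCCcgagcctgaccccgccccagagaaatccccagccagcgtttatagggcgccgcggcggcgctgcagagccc
NFKB2: aacgtcatGGGAATTCCCCcctccgggggg
CFLAR: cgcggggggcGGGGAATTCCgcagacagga
NFKBIZ: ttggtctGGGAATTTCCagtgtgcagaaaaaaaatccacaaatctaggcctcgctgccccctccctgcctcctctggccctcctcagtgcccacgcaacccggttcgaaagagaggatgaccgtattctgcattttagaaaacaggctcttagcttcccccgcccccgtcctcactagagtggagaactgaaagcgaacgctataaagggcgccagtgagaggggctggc
BIRC3: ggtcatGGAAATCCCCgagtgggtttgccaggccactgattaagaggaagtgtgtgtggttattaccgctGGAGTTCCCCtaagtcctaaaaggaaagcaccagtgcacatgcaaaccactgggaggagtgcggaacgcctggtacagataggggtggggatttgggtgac
TNFAIP3: tttGGAAAGTCCCgtGGAAATCCCCgggcc

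The matches began 81 bases before the start in NFKBIA, 97 before the first listed start of CFLAR, 223 before the first of NFKBIZ, and 199 and 135 in BIRC3. Among the genes called with bezafibrate, a kB match was present in 3 that were higher (NFKBIA, NFKB2, CFLAR) and in 2 that were lower (NFKBIZ, BIRC3). CHUK, ZC3H12A, MAP3K14, BIRC2 and TNFAIP8 had no match in their windows. Matches were also present in members not called with bezafibrate: NFKBIB, NFKB1, REL, TRAF3, TNFAIP3, TNIP1, CYLD and IL32. The untested CXCL3 and LTB had matches too. The PPAR element DR1, a direct repeat of the nuclear receptor half-site with 1 base between the copies, was searched on both strands without mismatches. This exact repeat occurred in 0 of 56 member windows and in 6 windows of all genes (0.0172%). With so few matches in all genes, the 0 cannot show whether the members have or lack PPAR elements. A match describes letters in a window and does not show binding.

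In control cells the length-scaled levels of the set spanned a wide range (CPM per kb of the median coding transcript in GENCODE 29, which is approximate because the isoforms in use are not known). SOD2, the mitochondrial superoxide dismutase, was highest at 151.6 CPM per kb, followed by the stress-response gene IER3 at 56.3 and CFLAR, which encodes the caspase-8 inhibitor c-FLIP, at 44.3. From RIPK2 (26.4) through RELA, TNIP1, NFKBIA and CHUK to NFKB2 (23.1), the control libraries of each neighbouring pair overlapped, so the order within that stretch is not resolved. Among the DNA-binding subunits, RELA (26.4), NFKB2 (23.1) and NFKB1 (19.3) stood above RELB (4.22) and REL (3.55) in CPM per kb. BIRC3 (3.26), TNFAIP3 (1.38) and ICAM1 (0.703) were lower.

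**Figure D1:**
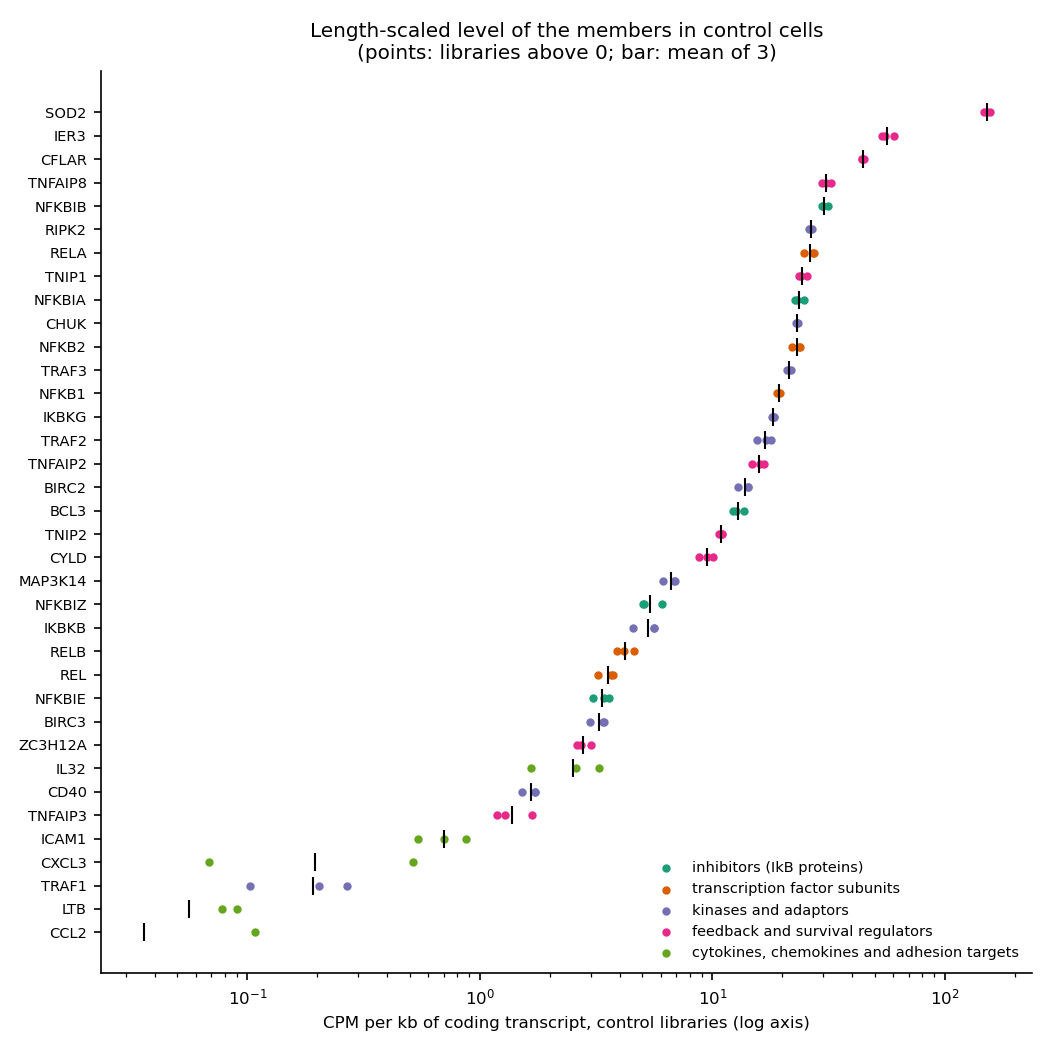
Level of each member in the 3 control libraries, in CPM per kb of coding transcript on a log axis, coloured by role; points are libraries above 0 and bars are means of 3. SOD2 lies highest at 151.6, and TNF and IL1B, which had 0 counts in control cells, are not drawn.

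Bezafibrate changed single genes of the set in both directions. Averaged over cells without and with ascites, 11 of 33 members were called (33.3%), 6 higher and 5 lower, beside 28.3% of all tested genes (15% higher, 13.2% lower). The members' share thus lay close to the share of all genes. The median log2 change over the members was 0.02, and over all genes -0.00. Of the called members, NFKBIZ fell most, and ZC3H12A, NFKBIE and NFKBIA rose most. In 7 members the 6 libraries with bezafibrate and the 6 without did not overlap, 5 higher and 2 lower, where 15.3% of all genes showed no overlap. Between the pairs of groups, 8 members were called for bezafibrate against control (4 higher, 4 lower), beside 17.6% of all genes (10.1% higher, 7.55% lower), and 7 for combination against ascites (4 higher, 3 lower), beside 17.8% of all genes (10.5% higher, 7.29% lower). These comparisons share no library, but both come from the same fit and share its estimate of the spread. The same 6 members were called in both, each in the same direction: NFKBIA, ZC3H12A and CFLAR higher, and NFKBIZ, MAP3K14 and BIRC3 lower. The share of all genes called in both is not given here.

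**Figure D2:**
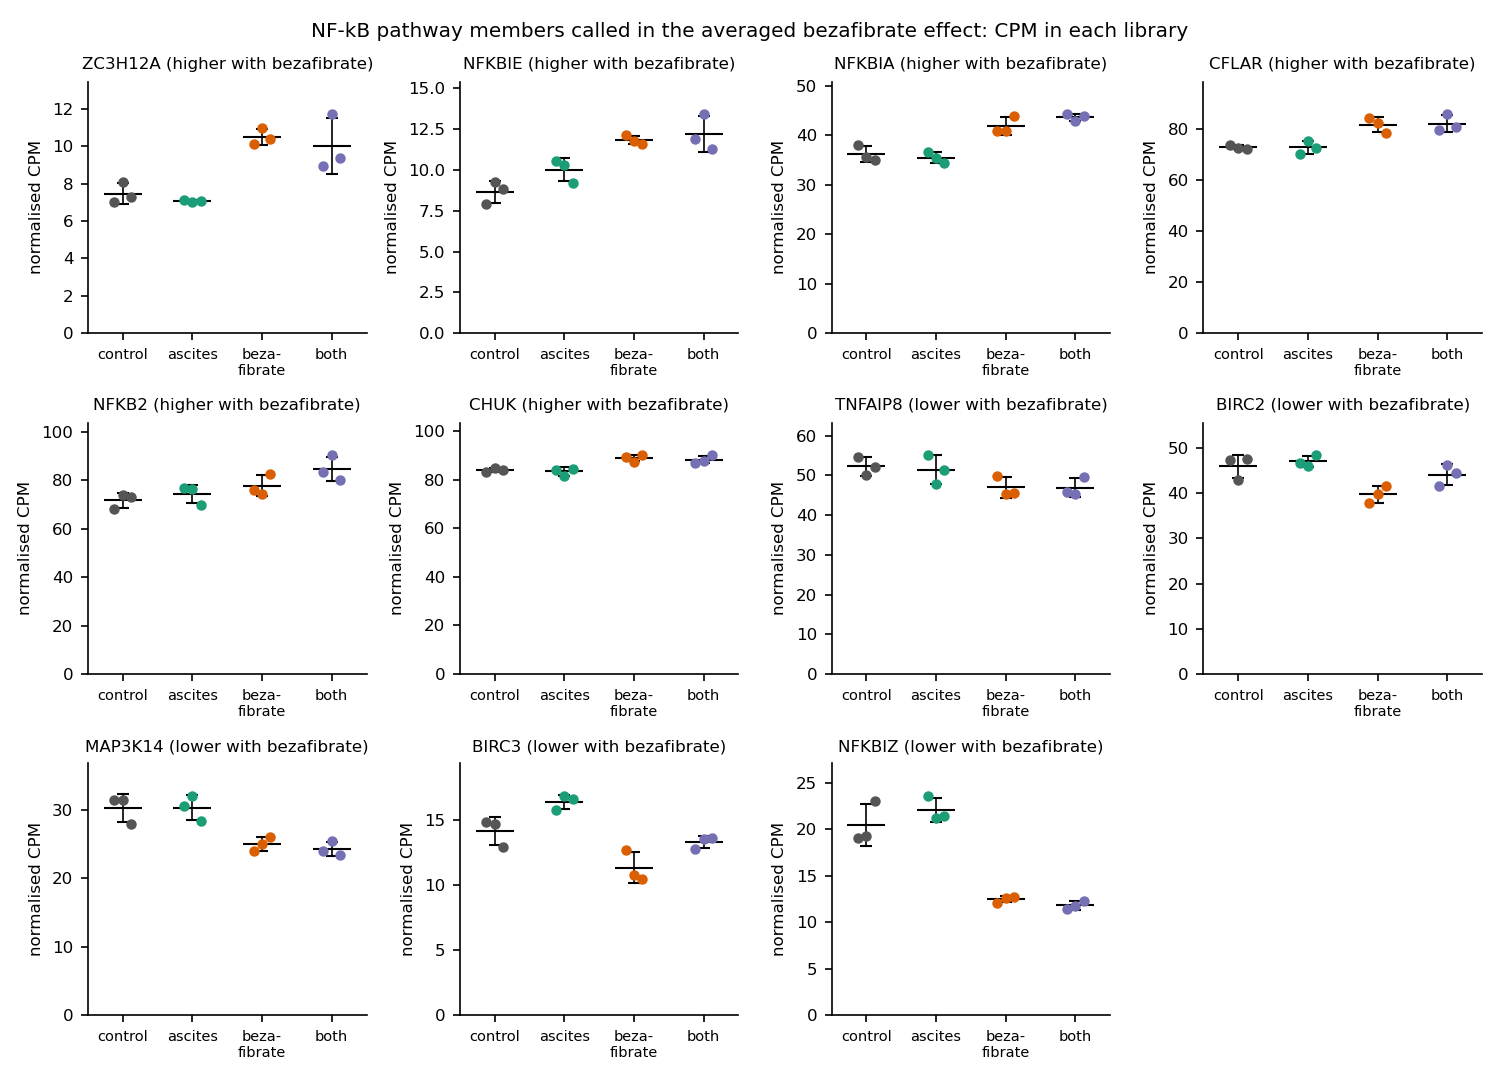
Normalised CPM of the 11 members called in the averaged bezafibrate effect, in each of 12 libraries; points are libraries, bars are means and whiskers SD over 3, and each axis starts at 0. NFKBIZ lies at 11.4 to 12.7 CPM in the libraries with bezafibrate and at 19.1 to 23.6 CPM in those without.

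Among the IkB proteins, 3 of 5 were called, 2 higher and 1 lower, beside 28.3% of all genes. NFKBIA encodes IkB alpha, the inhibitor that NF-kB itself induces and that ends the canonical response (14:35401511-35404749 in GENCODE 29, GRCh38). Its level was 38.04, 35.6 and 34.9 CPM in control libraries, 36.6, 35.4 and 34.3 with ascites, 40.9, 40.9 and 44.0 with bezafibrate, and 44.2, 42.8 and 43.8 with both. All 6 libraries with bezafibrate lay above all 6 without, and the ascites libraries overlapped the controls. The averaged change was 0.25 on the log2 scale (SE 0.041, edgeR Benjamini-Hochberg adjusted p = 4.65e-06), a fold of 1.19. It was called at 0.21 in bezafibrate against control and at 0.30 in combination against ascites. The first of these calls was lost without control replicate 3 (adjusted p = 0.0549) or without bezafibrate replicate 3 (adjusted p = 0.0557), in edgeR.

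NFKBIE encodes IkB epsilon, another induced cytoplasmic inhibitor (6:44258166-44265788). It measured 7.91, 9.26 and 8.80 CPM in control, 10.5, 10.3 and 9.22 with ascites, 12.1, 11.8 and 11.6 with bezafibrate, and 11.9, 13.4 and 11.3 with both. Every library with bezafibrate was above every library without it. Averaged over both settings, NFKBIE rose by 0.37 (SE 0.075, edgeR adjusted p = 0.000173). It was 0.45 against control and was called there. In combination against ascites it was 0.28, with an edgeR adjusted p of 0.0589, and it was called there without combination replicate 3 (0.33, adjusted p = 0.0412).

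NFKBIZ encodes IkB zeta, an atypical nuclear IkB that acts as a cofactor for a subset of NF-kB targets (3:101827991-101861022). It had the largest change of the members with a mean of at least 1 CPM. Its level was 19.1, 19.3 and 23.1 CPM in control, 23.6, 21.2 and 21.5 with ascites, 12.1, 12.6 and 12.7 with bezafibrate, and 11.4, 11.7 and 12.3 with both. The highest library with bezafibrate lay well below the lowest library without it. Averaged over both settings its change was -0.81 (SE 0.063, edgeR adjusted p = 2.39e-13), a fold of 0.571. It was -0.71 (SE 0.088) without ascites and -0.91 (SE 0.091) with ascites, and the difference between these, -0.20 (95% interval -0.46 to 0.06, edgeR adjusted p = 0.999), was not called.

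The remaining IkB proteins were not called. BCL3, a nuclear IkB that partners p50 and p52 homodimers, changed by -0.07, and NFKBIB, which encodes IkB beta, by 0.02. NFKBIB shares exon sequence with the antisense gene SIRT2, and the strandedness of the counts is not given in the sources used here, so its value is uncertain.

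Of the 5 transcription factor subunits, only NFKB2 was called in the averaged bezafibrate effect (20%, beside 28.3% of all genes). NFKB2 encodes p100, the precursor of p52 and the substrate of the non-canonical route (10:102394110-102402529). It measured 68.0, 73.9 and 73.1 CPM in control, 76.7, 76.3 and 69.96 with ascites, 76.0, 74.4 and 82.6 with bezafibrate, and 83.3, 90.3 and 80.2 with both. The combination libraries were the highest 3 but for bezafibrate replicate 3, which lay among them, and the bezafibrate libraries otherwise overlapped the ascites libraries. NFKB2 rose by 0.15 on average (SE 0.037, edgeR adjusted p = 0.00142). It was called at 0.19 in combination against ascites and at 0.24 in combination against control. In bezafibrate against control it was 0.11, with an edgeR adjusted p of 0.134. The call in combination against ascites was lost without ascites replicate 3 (0.14, edgeR adjusted p = 0.0977) or without combination replicate 2 (0.14, edgeR adjusted p = 0.0781).

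The other subunits were not called. RELA, the p65 transactivating subunit, changed by 0.03 (95% interval -0.04 to 0.10) and NFKB1, the p105 precursor of p50, by 0.03 (-0.04 to 0.09). REL, which encodes c-Rel, changed by 0.02 (-0.08 to 0.13). For RELB, the usual partner of p52, the value was 0.17 (0.01 to 0.32) with an edgeR adjusted p of 0.104. Its level was 8.89 to 10.9 CPM without bezafibrate and 10.4 to 12.2 CPM with it, and these ranges overlapped.

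Among the 11 kinases and adaptors, 4 were called (36.4%), 1 higher and 3 lower, beside 28.3% of all genes (15% higher, 13.2% lower). MAP3K14 encodes NIK, the kinase that starts the non-canonical route (17:45263119-45317145). It measured 31.4, 31.4 and 27.9 CPM in control, 30.5, 31.9 and 28.3 with ascites, 23.9, 24.9 and 25.97 with bezafibrate, and 24.0, 25.4 and 23.4 with both. All 6 libraries with bezafibrate were below all 6 without, and ascites left no separation from control. For MAP3K14 the averaged change was -0.30 (SE 0.049, edgeR adjusted p = 6.35e-06), and it was called at -0.28 without and at -0.32 with ascites.

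BIRC3 encodes cIAP2, a ubiquitin ligase of the TNF receptor complexes that is also an NF-kB target (11:102317450-102339403). Its level was 14.9, 14.7 and 12.9 CPM in control, 15.8, 16.9 and 16.6 with ascites, 12.7, 10.8 and 10.5 with bezafibrate, and 12.8, 13.6 and 13.7 with both. The bezafibrate libraries lay below control and the combination libraries below ascites, but the combination libraries overlapped control. BIRC3 changed by -0.31 on average (SE 0.067, edgeR adjusted p = 0.000361). BIRC3 was called at -0.32 in bezafibrate against control and at -0.30 in combination against ascites, and in combination against control it was -0.09, with an edgeR adjusted p of 0.590. With DESeq2 the 2 called values became -0.32 (adjusted p = 0.0781) and -0.30 (adjusted p = 0.0968). The first was also lost in edgeR without control replicate 1 or 2 or bezafibrate replicate 2 or 3 (adjusted p = 0.0700 to 0.0849), and the second without ascites replicate 2 or 3 or combination replicate 1 (adjusted p = 0.0577 to 0.0825).

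BIRC2 encodes cIAP1, which with TRAF2 and TRAF3 marks NIK for degradation (11:102347211-102378670). It measured 47.3, 43.1 and 47.5 CPM in control, 46.8, 46.1 and 48.4 with ascites, 37.9, 39.8 and 41.7 with bezafibrate, and 41.6, 46.2 and 44.5 with both. The bezafibrate libraries lay below all controls, whereas the combination libraries overlapped both the control and the ascites libraries. BIRC2 changed by -0.16 on average (SE 0.041, edgeR adjusted p = 0.00342). It was called at -0.21 without ascites and was -0.10 with ascites (edgeR adjusted p = 0.266), and the difference between these, 0.11 (95% interval -0.06 to 0.28), was not called. The call without ascites was lost without control replicate 1, control replicate 3 or bezafibrate replicate 1 (edgeR adjusted p = 0.0522 to 0.0630).

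CHUK encodes IKK alpha, the IKK subunit that NIK activates (10:100188298-100229619). It measured 83.2, 84.9 and 83.8 CPM in control, 84.2, 81.5 and 84.6 with ascites, 89.5, 87.4 and 90.1 with bezafibrate, and 87.1, 87.7 and 90.1 with both. The groups with and without bezafibrate did not overlap, but the averaged change was small, 0.08 (SE 0.030, edgeR adjusted p = 0.0353). It was called in 9 of 18 alternative settings. The call was lost with DESeq2 (adjusted p = 0.102), with no filter on low counts (0.08, edgeR adjusted p = 0.0723) and with upper-quartile scaling (0.06, edgeR adjusted p = 0.105). It was also lost without control replicate 1 or 3, ascites replicate 2, or bezafibrate replicate 1 or 3 (edgeR adjusted p = 0.0666 to 0.0873). Without combination replicate 3 the change was 0.07 and was not called (edgeR adjusted p = 0.0622). CHUK shares exon sequence with ERLIN1 on the same strand, so its value is also uncertain in that respect.

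The other members of this group were not called. IKBKB, which encodes the main catalytic subunit of the canonical IKK complex, changed by -0.12 (95% interval -0.23 to 0.00, edgeR adjusted p = 0.137), and it was called without control replicate 3 (-0.16, adjusted p = 0.0342). The IKK scaffold IKBKG changed by -0.00, TRAF2 by -0.02 and TRAF3 by -0.03. IKBKG has a near-identical pseudogene copy, which makes its value uncertain. RIPK2, the kinase downstream of NOD receptors, changed by 0.01, and the receptor CD40, at a mean of 2.94 CPM, by 0.08 (SE 0.158).

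Of the 10 feedback and survival regulators, 3 were called (30%), 2 higher and 1 lower, close to the 28.3% of all genes. ZC3H12A encodes Regnase-1, an endonuclease that degrades inflammatory transcripts (1:37474552-37484379). Its level was 7.02, 8.08 and 7.30 CPM in control, 7.12, 7.03 and 7.07 with ascites, 10.1, 10.98 and 10.4 with bezafibrate, and 8.97, 11.7 and 9.37 with both. All libraries with bezafibrate were above all without. The averaged change was 0.49 (SE 0.085, edgeR adjusted p = 1.45e-05), a fold of 1.41 and the largest rise in the set, and it was called at 0.49 both without and with ascites. In combination against control it was called at 0.41, a call lost with DESeq2 (adjusted p = 0.0642), without control replicate 1 (0.37, edgeR adjusted p = 0.0682) or without combination replicate 2 (0.30, edgeR adjusted p = 0.128).

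CFLAR (2:201116104-201176687) measured 73.9, 72.5 and 72.3 CPM in control, 70.3, 75.5 and 72.4 with ascites, 84.2, 82.4 and 78.5 with bezafibrate, and 79.5, 85.8 and 80.8 with both. The libraries with bezafibrate lay above all without, and the averaged change was 0.17 (SE 0.033, edgeR adjusted p = 8.71e-05). The change was called at 0.17 without and with ascites. The call without ascites was lost without bezafibrate replicate 1 (0.14, edgeR adjusted p = 0.0552). That with ascites was lost without ascites replicate 1 (0.15, edgeR adjusted p = 0.0582) or combination replicate 2 (0.14, edgeR adjusted p = 0.0573). In combination against control it was 0.17 and was lost without combination replicate 2 (edgeR adjusted p = 0.0624).

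TNFAIP8, a TNF-induced regulator of cell death (5:119268692-119399688), measured 54.7, 50.03 and 52.0 CPM in control, 55.0, 47.8 and 51.4 with ascites, 49.9, 45.4 and 45.6 with bezafibrate, and 45.8, 45.3 and 49.6 with both. Its libraries with and without bezafibrate overlapped. The averaged change was -0.15 (SE 0.041, edgeR adjusted p = 0.00625). Neither group pair was called, at -0.16 without ascites (edgeR adjusted p = 0.0581) and -0.14 with ascites (edgeR adjusted p = 0.113). Both came past the threshold under some settings, and combination against ascites did so without combination replicate 3 (-0.18, edgeR adjusted p = 0.0372). In combination against control TNFAIP8 was -0.16 (edgeR adjusted p = 0.0573), and it was called without combination replicate 3 (-0.20, edgeR adjusted p = 0.0145).

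TNFAIP3, which encodes the ubiquitin-editing enzyme A20 and carries a pair of kB matches in the stretch above, was not called. Its level was 4.50, 6.39 and 4.92 CPM in control, 5.41, 4.76 and 5.05 with ascites, 4.88, 5.38 and 4.26 with bezafibrate, and 3.40, 4.50 and 3.88 with both. Combination replicates 1 and 3 lay below all other libraries, and combination replicate 2 lay level with the lowest control, so the groups overlapped. The averaged change was -0.25 (SE 0.117, edgeR adjusted p = 0.114), and in combination against control it was -0.44 (edgeR adjusted p = 0.0734). The latter was called without control replicate 1 (-0.55, edgeR adjusted p = 0.0411) or without combination replicate 2 (-0.54, edgeR adjusted p = 0.0495).

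The other regulators lay near 0. The A20-binding proteins TNIP1 and TNIP2 changed by 0.02 and 0.08, the deubiquitinase CYLD by -0.01, IER3 by 0.02, TNFAIP2 by -0.02 and SOD2 by 0.03 (95% interval -0.03 to 0.08). SOD2 overlaps the antisense gene WTAP, so its value is uncertain. Of the target genes with tested counts, the adhesion molecule ICAM1 changed by 0.25 (SE 0.181; mean 2.02 CPM) and the cytokine IL32 by 0.15 (SE 0.179; mean 2.11 CPM), and neither was called. Their standard errors were wider than those of the abundant members, and a change of the size seen in NFKBIA could not be called in them at this depth.

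**Figure D3:**
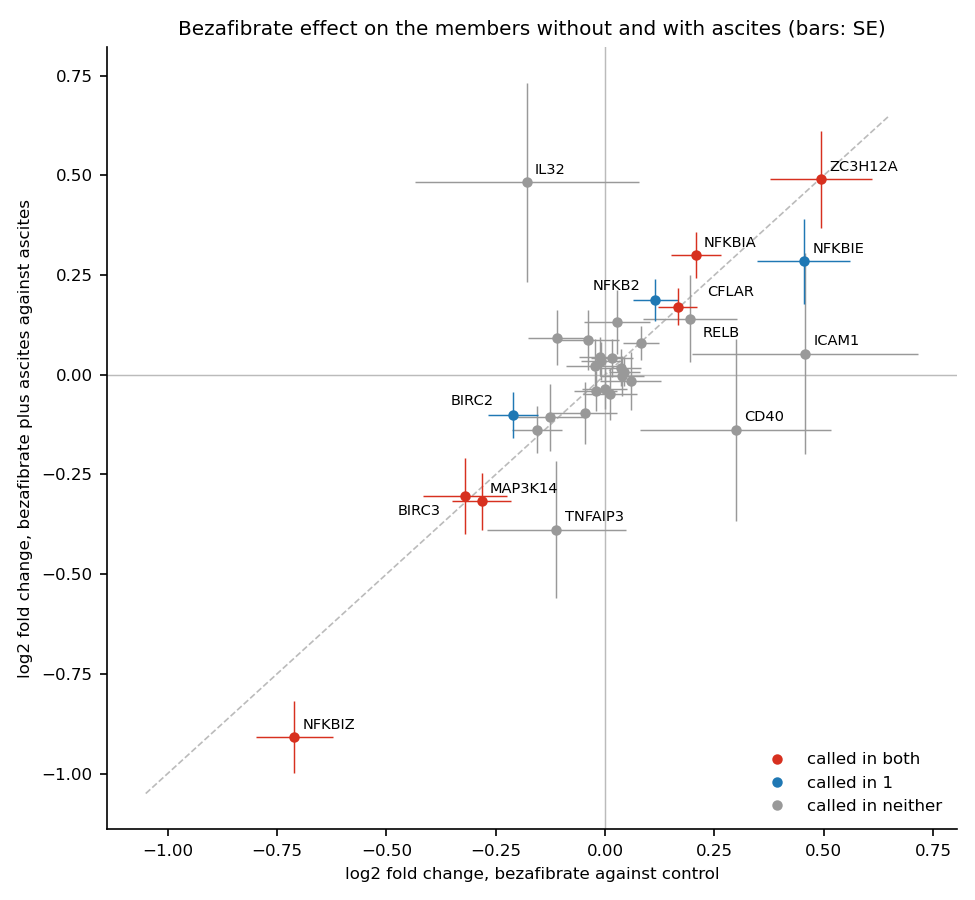
Log2 fold change of the 32 members with a mean of at least 1 CPM for bezafibrate against control (horizontal) and for combination against ascites (vertical), with SE bars and a dashed line of equality. The 6 members called in both lie near that line, from NFKBIZ (-0.71 and -0.91) to ZC3H12A (0.49 and 0.49), and the unlabelled members lie within 0.2 of 0.

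No difference between the effects of bezafibrate with and without ascites was called. Of 33 members, 22 had the same sign in both (66.7%, beside 73% of all genes), and the interaction was called for 0 members and 0 of all genes. For 11 of the 32 members with a mean of at least 1 CPM, the 95% interval of the interaction lay within 0.2 of 0 (median SE 0.095). Differences above 0.2 in the others are not excluded. In edgeR 1 member had an unadjusted interaction p under 0.05, and in DESeq2 0 members did. That member was CYLD, which changed by -0.11 without ascites and by 0.09 with it, a difference of 0.20 (95% interval 0.01 to 0.40, edgeR adjusted p = 0.999). Among the 32 members with a mean of at least 1 CPM, the widest difference was in IL32, 0.66 (95% interval -0.06 to 1.39), a gene of few counts. In combination against control, 7 members were called (5 higher, 2 lower), beside 18.2% of all genes (10.3% higher, 7.96% lower). The test for any difference among the 4 groups called 9 members (27.3%, beside 20.9% of all genes): those called in the averaged bezafibrate effect apart from CHUK and TNFAIP8.

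Ascites called no member. In edgeR, 0 of 33 were called in ascites against control (0.0882% of all genes), in combination against bezafibrate (0.128%, with 0.0401% higher and 0.0882% lower) and in the ascites effect averaged over bezafibrate (0.281%). DESeq2 also called 0 in each. At an unadjusted p under 0.05, edgeR had 1, 4 and 3 members and DESeq2 0, 2 and 2. No member had its 6 libraries with ascites clear of the 6 without, as 0.289% of all genes did. For 24 of the 32 members with a mean of at least 1 CPM, the 95% interval of the averaged ascites change lay within 0.2 of 0 on the log2 scale, and the median SE was 0.048.

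The averaged ascites changes ran from -0.19 in TNFAIP3 to 0.23 in IL32. BIRC3 had the lowest p, with a change of 0.22 (SE 0.067, unadjusted p = 0.00249, edgeR adjusted p = 0.285). Its ascites libraries lay above all controls and its combination libraries above all bezafibrate libraries, while the libraries with and without ascites overlapped across the 4 groups. NFKB2 and BIRC2 each had an averaged change of 0.09, with unadjusted p of 0.0202 and 0.0343 and edgeR adjusted p of 0.555 and 0.658. NFKBIA changed by 0.01 (95% interval -0.07 to 0.10) and RELA by 0.06 (-0.01 to 0.13). Intervals were wide for ICAM1 (-0.15 to 0.58) and IL32 (-0.13 to 0.60), and a change of that size was not detectable in them.

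**Figure D4:**
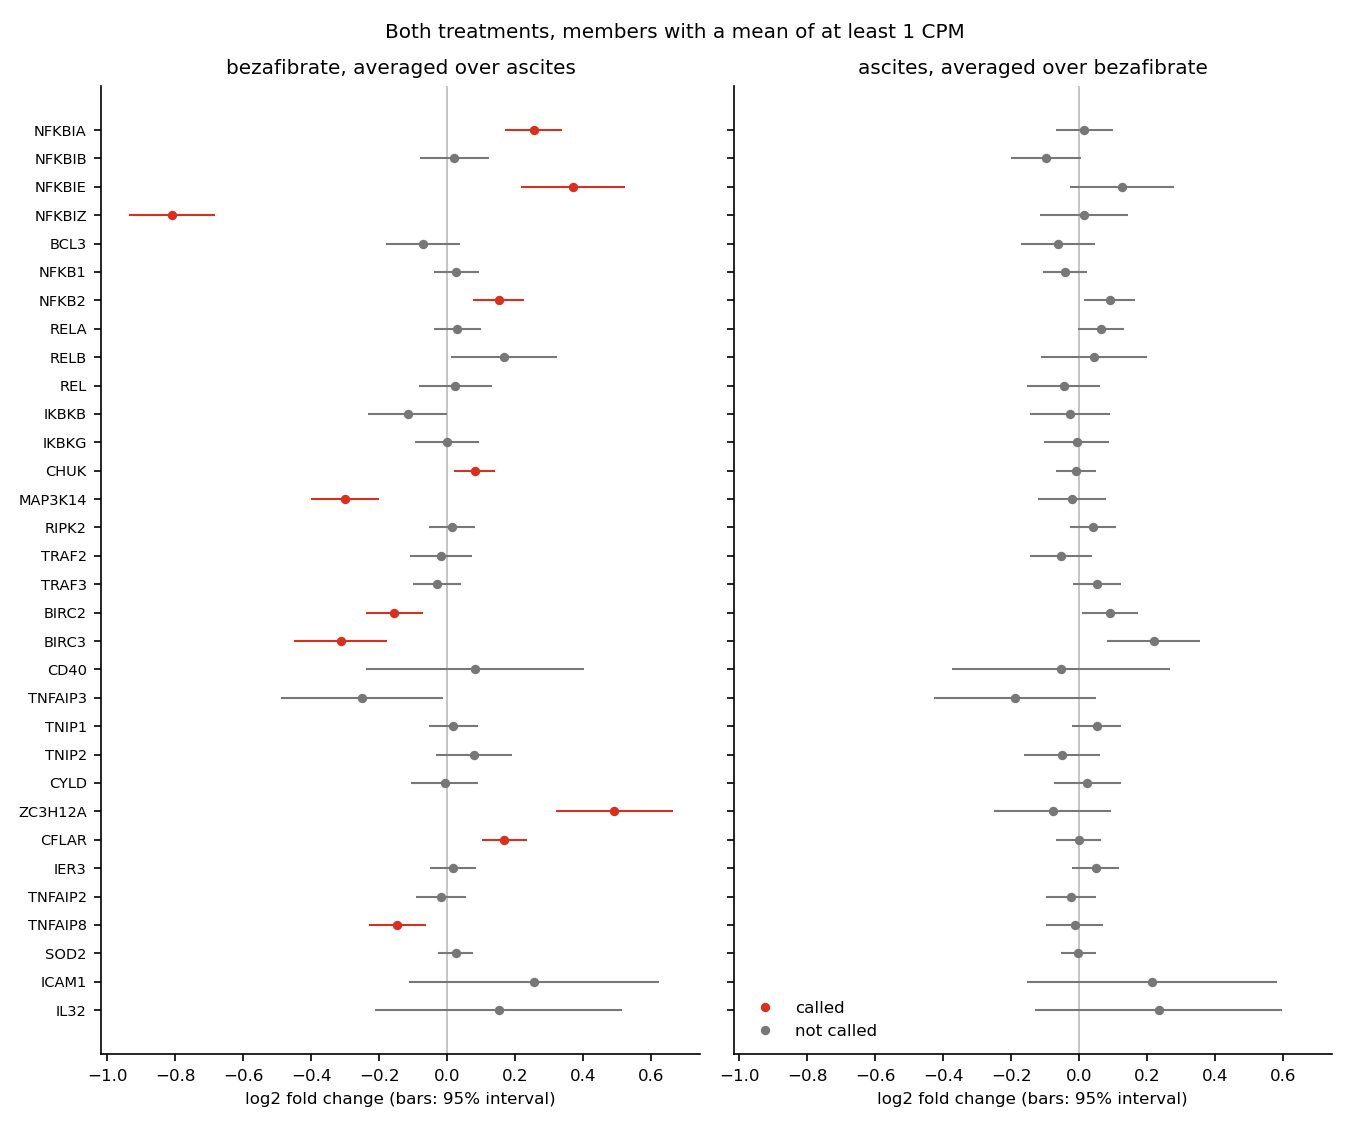
Averaged log2 fold change and 95% interval of each member with a mean of at least 1 CPM, for bezafibrate (left) and ascites (right), ordered by role from the IkB proteins at the top to the targets at the bottom. Called members are red: 11 for bezafibrate, with NFKBIZ lowest at -0.81, and 0 for ascites, where estimates run from -0.19 to 0.23.

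The pathway beyond the 38 members was read from a list of 116 further genes, of which 88 were tested. With bezafibrate 40 of the 88 were called (45.5%), 29 higher and 11 lower, beside 28.3% of all genes (15% higher, 13.2% lower). The list was chosen with earlier results of these data known, so its share is not a test of the pathway. Of 10 tested receptors 7 were called, 6 of them higher. TLR4, the receptor for bacterial lipopolysaccharide, measured 35.2 to 40.4 CPM in the 6 libraries without bezafibrate and 97.2 to 112.2 CPM in the 6 with it (1.46, SE 0.042, edgeR adjusted p = 4.81e-24). The TNF receptors TNFRSF1A and TNFRSF1B rose by 0.75 and 0.78 on the log2 scale (edgeR adjusted p = 1.79e-23 and 8.11e-19). Among 35 adaptors, kinases and ubiquitin machinery genes 9 were higher (25.7%) and 2 lower (5.71%). Their share called (31.4%) lay close to that of all genes. IRAK2, a kinase of the IL-1 and Toll-like receptor complexes, rose by 0.69 (edgeR adjusted p = 7.45e-16). Of 14 further IkB proteins and negative regulators 0 were higher and 2 lower (14.3%), and that lower share was close to the share of all genes.

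Among 29 further target genes with tested counts, 14 were higher (48.3%) and 6 lower (20.7%), beside 15% and 13.2% of all genes. These targets too were chosen with earlier results known. The cytokine CSF2 rose by 2.76 (SE 0.148, edgeR adjusted p = 4.81e-18), from 0.714 to 1.21 CPM without bezafibrate to 5.50 to 7.80 CPM with it. PTX3, a secreted pattern recognition protein, rose by 1.74, the immunoproteasome subunit PSMB9 by 1.21, and the transcription factors IRF1 and CEBPD by 1.02 and 1.01. TNFSF15, a TNF family ligand, fell by 0.86. PSMB9, PTX3 and IRF1 each share exon sequence with a listed antisense gene (PSMB8, VEPH1 and AC116366.3), and TLR4 with AL160272.2, so their values are uncertain. These 10 genes were called in all 18 alternative settings. Of the 88 genes, 1 was called in the averaged ascites effect: BCL2L1, which encodes the survival protein BCL-XL, at 0.10 (SE 0.021, edgeR adjusted p = 0.0248). BCL2L1 kept that call in 11 of 18 alternative settings, with a highest adjusted p of 0.107, and lost it without control replicate 2 or 3, ascites replicate 1, 2 or 3, bezafibrate replicate 1 or combination replicate 2.

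**Figure D5:**
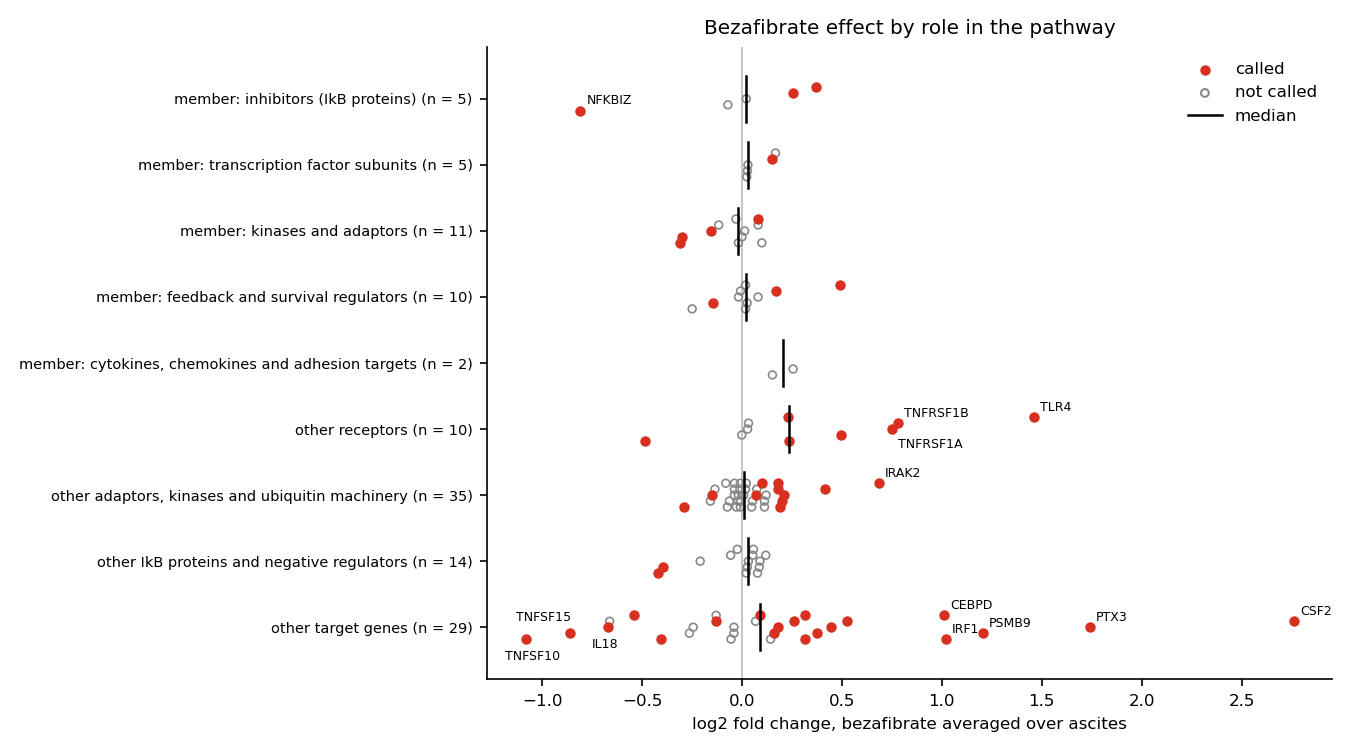
Averaged log2 fold change with bezafibrate for each tested member (upper 5 lines) and each tested gene of the further pathway list (lower 4 lines), by role; filled points are called, open points are not, and black bars are medians. Further receptors and target genes reach higher values (TLR4 1.46, CSF2 2.76) than the members, whose called values lie between -0.81 and 0.49.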

How the data were processed

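Gene counts are as deposited by the authors, whole numbers in a separate table for each library. The submitters' processing notes name Trimmomatic 0.39, STAR 2.7.9a, RSEM 1.3.3, DESeq2 1.28.1 and GRCh38, without saying what each was used for. The annotation, the strandedness and any rounding of estimates are not given in the sources used here, and these steps decide how reads shared between overlapping genes are divided. Groups and replicate numbers came from the labels.

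Counts were filtered with filterByExpr (minimum count 10, minimum total 15) in edgeR 4.0.16 under R 4.3.3, which left 12470 of 19677 genes, and scaled by TMM. One mean per group was fitted to all 12 libraries (8 residual degrees of freedom), and contrasts were tested with glmQLFit (robust) and glmQLFTest. P-values were adjusted by the Benjamini-Hochberg method over all tested genes. An averaged effect is the mean of the effects without and with the other treatment. CPM values are TMM-scaled. Replicates of a group differed beyond sampling noise (chi-square per degree of freedom 1.44 to 4.45). Fits were tested on simulated data. The alternatives were other scalings and filters, DESeq2 1.42.0, a replicate block, only the groups compared, a stricter threshold, and leaving out each library.

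Coordinates and lengths are from GENCODE 29 (GRCh38), matched by Ensembl identifier, and promoters from RefSeq (GRCh38.p14). The members and lists were chosen with earlier results of these data known. Values are given for members called in any contrast, and for up to 10 genes of the further list with the largest called bezafibrate change of at least 0.5 (log2) at a mean of at least 1 CPM, and for those called with ascites. TNFAIP3 was added for its role in feedback after its values were seen.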

Additional observations from a re-analysis of the deposited data

How the results depend on the processing

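Counts of members called stayed within 1.5 times of the reported count in every comparison and setting. They were 10 to 11 for the averaged bezafibrate effect, 6 to 9 for bezafibrate against control, 5 to 9 for combination against ascites, 6 to 8 for combination against control, 9 to 10 for any difference, and 0 for the ascites comparisons and the interaction. No called value changed sign. Of the 11 members called in the averaged effect, 10 were called in all 18 settings that keep the threshold, and CHUK in 9. Without combination replicate 3, 10 members were called in the averaged bezafibrate effect (11 with it), 9 in combination against ascites (7 with it), 8 in combination against control (7 with it) and 10 for any difference (9 with it).

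Same-numbered libraries showed no clear pairing, with correlations of their deviations from -0.135 to 0.0613. With 3 replicates per group these values cannot show whether replicates shared a day or culture. With a replicate block, 11 members were called in the averaged bezafibrate effect, 9 in bezafibrate against control, 7 in combination against ascites and 10 for any difference. The block called 1 gene for the interaction over all genes, where 0 were called without it.

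Counts over all genes moved more where few were called. Ascites against control called 11 genes, and 59 with no filter, 33 with only the groups compared, 4 at an adjusted p under 0.01, and 3 to 5 without 1 library. Combination against bezafibrate called 16, and 52, 7 and 6 under the same settings, and 9 to 28 without 1 library, the highest without combination replicate 3. The averaged ascites effect called 35, and 113 with no filter, 19 at 0.01, and 21 to 118 without 1 library, the highest again without combination replicate 3. The interaction called 0, and 36 with no filter and 0 to 3 without 1 library, the highest without combination replicate 1. Combination against ascites called 2214, and 1475 at 0.01. The cause of these shifts was not tested.

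Upper-quartile scaling moved the share of called genes that were higher with bezafibrate from 53.2% to 43.3% in the averaged effect, from 57.2% to 49% against control, from 58.9% to 49.3% in combination against ascites and from 56.3% to 47.3% in combination against control. The members split 5 higher and 5 lower under it in the averaged effect. Low counts limit TRAF1, CD40, ICAM1 and IL32, and the labels leave the solvent and the source of the ascites unresolved.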
